A study of Mus musculus with 12 samples.

Results

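Peaks at the centromere end of the mouse autosomes are described here. They are all deposited ChIP-seq peaks on chromosomes 1 to 19 that start below position 4000000, and they were chosen by position alone. A total of 617 of 99986 deposited peaks met this rule, and another 92190 peaks on the same chromosomes started at 4000000 or more. In ChIP-seq, DNA bound to a protein is enriched with an antibody and sequenced, and a peak is an interval where a caller found more reads than its background model gives. Both wild-type and NLRP3 KO mice were C57/Bl6j animals aged 7 weeks, and their CD4 T cells were used. They were isolated as naive cells from spleen and nodes and activated on plates coated with CD3 and CD28 antibodies. The Th2 medium held 10 ng/ml IL-4 with anti-interferon gamma, given for a few hours, and chromatin was prepared from 300000 cells. Each genotype gave 6 libraries, made with antibodies to STAT6, NLRP3, IRF4 and BATF, with a nonspecific immunoglobulin (Ig), and from input DNA without antibody. Each of the 12 groups is 1 library, so no difference between libraries can be set against replicate error, and no test was made. The labels do not say whether the mice were pooled.

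Mouse autosomes carry the centromere at 1 end, next to long arrays of satellite repeats. These arrays cannot be assembled, so the reference leaves a gap there and its first bases near position 3000000 border on it. Reads from repeat copies that an assembly lacks can align to the few copies it holds, and such places are known to give high signal in many ChIP-seq and input libraries. Of the proteins targeted, STAT6 transmits the IL-4 signal to the nucleus, BATF and IRF4 are transcription factors that can share composite DNA sites, and NLRP3 is known as an inflammasome sensor. The repeat content, the genes and the base sequence of the peaks described below were not analysed here. The build is named mm8 in the submitters' notes, but peaks on chromosome 7 reach 152397321, past the end of that chromosome in mm8 and within it in mm9. Positions below are the deposited ones with the first base numbered 1, probably on mm9.

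The first megabase held more peaks per Mb than the rest of the autosomes in 10 of the 12 libraries. The window from 3000000 to 4000000 covers 19 Mb over the 19 autosomes and the remainder 2395 Mb, so an even spread would place 0.787% of autosomal peaks in the window. Wild-type NLRP3 had 22 peaks there, 6.19 times the density of its other autosomal peaks (exact Clopper-Pearson 95% interval 3.84 to 9.49, which like all intervals below covers counting error of peaks only). Knockout STAT6 had the largest ratio to the rest, with 18 peaks and a density 10.2 times that of the rest (5.95 to 16.5). It also had the fewest autosomal peaks outside the window, 222, whereas wild-type STAT6 had 2744. In the window itself knockout STAT6 had 0.947 peaks per Mb and wild-type STAT6 1.42. The ratios thus depend on list length as well as on the peaks in the window. Wild-type input had 23 peaks and a ratio of 7.32 (4.59 to 11.1), which was 2.23 without the first 100 kb of chromosome 9. Knockout Ig had 11 peaks at 4.52 times (2.23 to 8.20), and wild-type Ig had 16 at 3.77 times (2.14 to 6.18). The excess was thus present in both background preparations of wild-type cells and in the Ig of knockout cells. It was also present in the specific antibody libraries other than wild-type STAT6 and knockout BATF, which are given below. Wild-type IRF4 had 20 peaks at 3.81 times (2.31 to 5.93), knockout NLRP3 15 at 3.65 times (2.03 to 6.08), knockout IRF4 16 at 2.53 times (1.44 to 4.13) and wild-type BATF 11 at 2.20 times (1.09 to 3.96). For wild-type STAT6, with 27 peaks, the ratio was 1.24 and its interval reached below 1 (0.816 to 1.81), and without chromosome 11 it was 0.963.

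Knockout BATF and knockout input, whose lists are far longer than the others, went the other way. Knockout BATF had 309 peaks in the window, at 0.691 times the density elsewhere (0.616 to 0.773), and knockout input had 129, at 0.569 times (0.475 to 0.677). Summed over the other 10 libraries the window held 179 peaks at 3.11 times the density of the rest (2.66 to 3.60). With all 12 libraries the summed ratio was 0.844 (0.778 to 0.913), because those 2 lists hold most of the peaks.

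Summed over the 10 shorter lists, the other end of the autosomes shared part of this excess. The last megabase before the final peak of each autosome held 110 peaks of the 10 shorter lists, 1.92 times the density of the remainder (1.58 to 2.32), and the first megabase held 1.63 times as many as the last (1.28 to 2.08). Its final base is set by a peak, so it holds at least 1 peak of some library on each chromosome. For knockout STAT6 the ratio of 10.2 became 2 against the last megabase (0.853 to 5.05), and for wild-type NLRP3 6.19 became 2.20 (0.9997 to 5.20). It was 1.54 for wild-type IRF4, 1.60 for wild-type Ig and 1.83 for knockout Ig, all with intervals that reached below 1. The interval lay above 1 in 2 libraries, wild-type input at 5.75 (1.96 to 22.9) and knockout NLRP3 at 3.75 (1.19 to 15.5). Wild-type STAT6 had fewer peaks in the first megabase than in the last, 27 against 37.

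**Figure D1:**
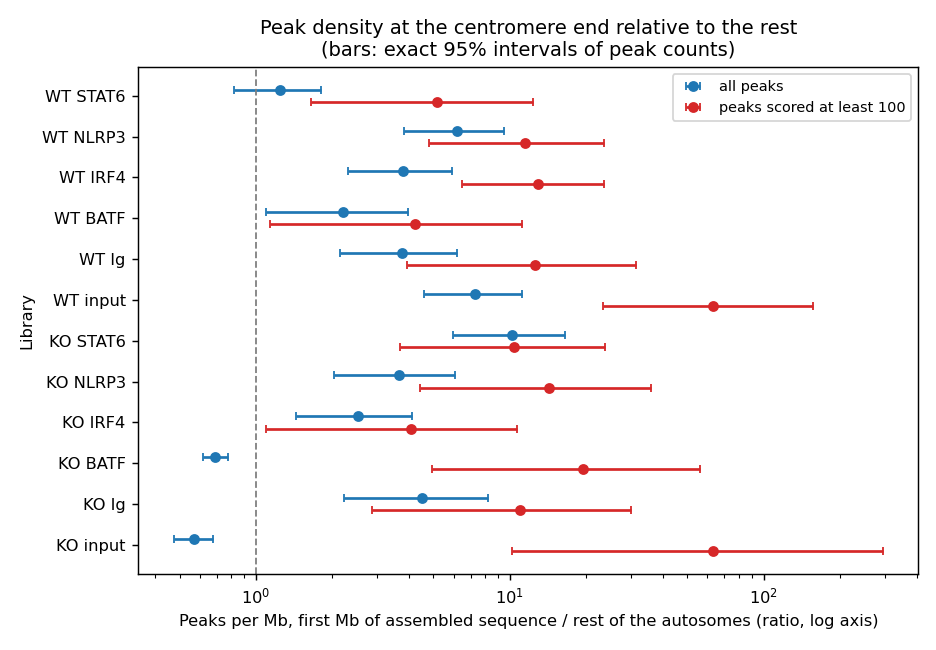
Density of peaks in the first megabase of assembled sequence divided by the density on the rest of the autosomes (log axis), for each of the 12 libraries (WT, wild-type; KO, NLRP3 knockout). Points are ratios and bars exact 95% intervals of peak counts. Blue points, for all peaks, lie above 1 in 10 libraries and below 1 in knockout BATF and knockout input. Red points, for peaks scored at least 100, lie above 1 in all 12.

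The score of a peak is the caller's own value, read as 10 times the negative log10 of its p, and it is not comparable between libraries. Peaks scored 100 or more were denser in the window in all 12 libraries, and every interval lay above 1. Wild-type IRF4 had 12 such peaks among its 20, against 18.9% of all its autosomal peaks, a density ratio of 12.9 (6.49 to 23.5). Wild-type NLRP3 had 8 among 22, against 20.4% of its autosomal peaks. For wild-type BATF the count was 4 of 11 against 19.2%, and for wild-type STAT6 it was 5 of 27 against 4.58%. In knockout cells NLRP3 had 5 of 15 against 9.19%, STAT6 6 of 18 against 32.9%, IRF4 4 of 16 against 15.7%, and BATF 4 of 309 against 0.0529%. The background libraries shared this pattern. Wild-type input had 8 of 23 against 5.73%, knockout input 3 of 129 against 0.0314%, wild-type Ig 5 of 16 against 9.98% and knockout Ig 4 of 11 against 15.7%. All of these peaks in the input libraries lay at the start of chromosome 9 or in a single region of chromosome 12, both described below. For input the counts thus describe very few places. For knockout STAT6 the share of 33.3% in the window was close to its share in the whole list, so there the excess was one of peak number and not of score.

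Lists of different length were also brought closer in size by keeping the 200 highest-scored autosomal peaks of each, with ties. The ratio was then above 1 in all 12 libraries, and its interval lay above 1 in 9. The 3 exceptions were knockout IRF4 at 2.53 (0.684 to 6.59), knockout BATF at 2.22 (0.888 to 4.62) and knockout input at 1.20 (0.822 to 1.70). Because of ties knockout input kept 3385 peaks, knockout BATF 404, wild-type BATF 257 and wild-type input 249. The other lists kept from 200 to 221.

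Within the window the peaks of the 10 shorter lists gathered at its edge. Of their 179 peaks, 95 started in the first 100 kb, 28 in the next 100 kb and 25 between 300 and 400 kb. No later step of 100 kb held more than 6. The share in the first 100 kb was 53.1% over these libraries. It ran from 40.7% in wild-type STAT6 to 73.9% in wild-type input. Relative to the rest of the autosomes the first 100 kb held 62.5 times the density in knockout STAT6 (30.7 to 114), 54.1 times in wild-type input (31.2 to 87.8) and 28.1 times in wild-type NLRP3 (13.4 to 52.2). Wild-type STAT6, whose ratio over the whole window did not clear 1, had a ratio of 5.05 there (2.52 to 9.06). In wild-type input 16 of the 17 peaks in the first 100 kb lay in 1 stretch of chromosome 9. The ratio and share of wild-type input thus mostly describe that stretch, and the interval treats its peaks as separate counts. Beyond the first 100 kb the interval stayed above 1 in only 3 libraries, namely wild-type NLRP3 at 3.75 (1.92 to 6.62), wild-type Ig at 2.36 (1.07 to 4.51) and knockout STAT6 at 4.42 (1.76 to 9.25).

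**Figure D2:**
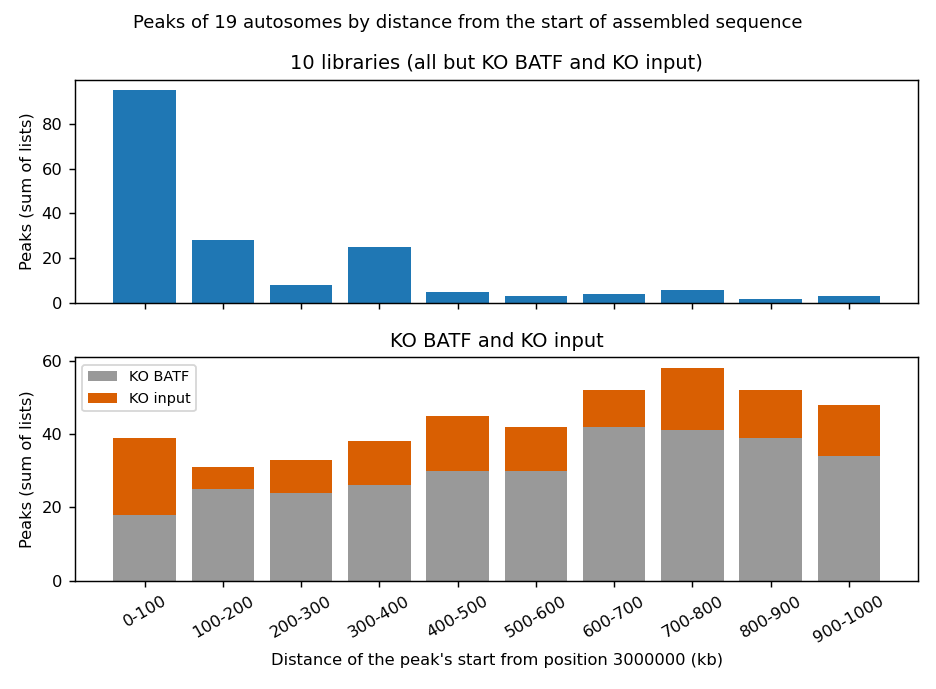
Number of peaks in steps of 100 kb from position 3000000, summed over the 19 autosomes, for the 10 shorter lists (upper panel) and for knockout BATF and knockout input (lower panel, stacked). The 10 lists fall from 95 peaks in the first step to 3 in the last, while knockout BATF and knockout input together hold between 31 and 58 in every step.

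The excess was unevenly spread over chromosomes. Over the 10 shorter lists chromosome 11 held 32 peaks, chromosome 16 held 28, chromosome 9 held 25, and chromosomes 4 and 17 held 17 each. Chromosomes 2, 5, 14, 15 and 19 held none, and chromosomes 7 and 10 held 1 each. Every one of the 12 libraries had a peak on chromosomes 11, 12 and 16. Wild-type input had 16 of its 23 peaks on chromosome 9, and without the first 100 kb of that chromosome its density ratio was 2.23 in place of 7.32.

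**Figure D3:**
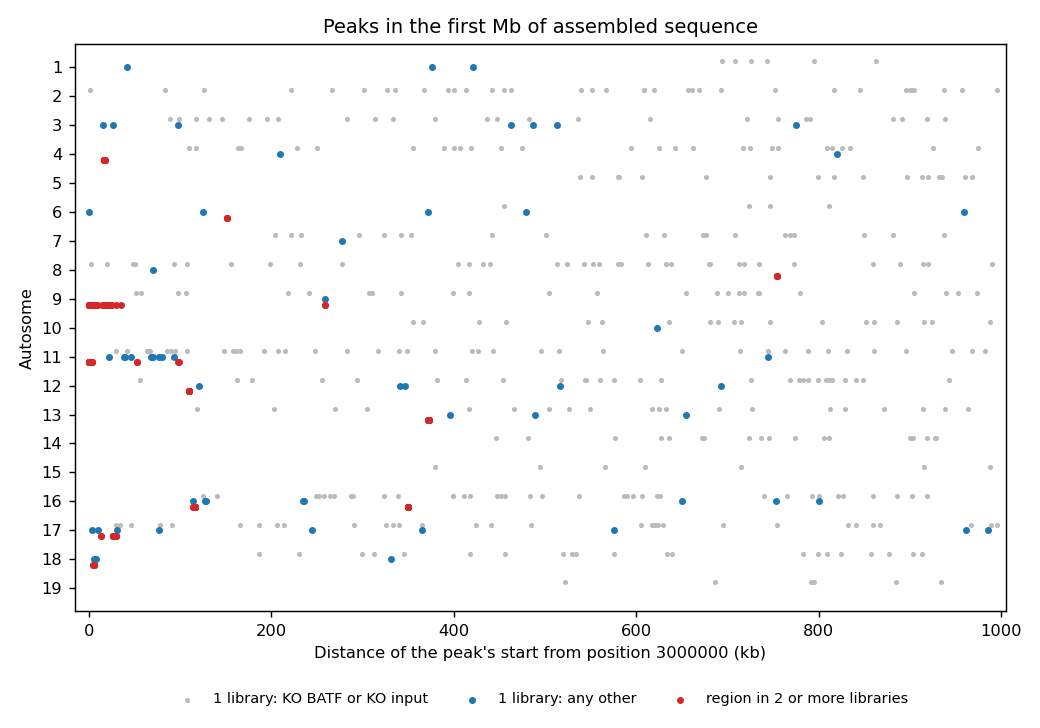
Start of each of the 617 peaks by autosome and by distance from position 3000000 in kb. Red points belong to regions found in 2 or more libraries, blue points to 1 of the 10 shorter lists and grey points to knockout BATF or knockout input alone. Red points sit on 10 of 19 autosomes, mostly near the left edge.

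Peaks of all 12 libraries were merged into regions where they shared at least 1 bp. The window held 502 regions, of which 21 were present in 2 or more libraries, or 4.18% (2.61 to 6.32). Over all autosomal regions 0.49% recurred in this way, and outside the window 427 of 90953 did, which is 0.469% (0.426 to 0.516). Regions in 6 or more libraries numbered 7 of 502, against 0.107% of all autosomal regions. Per megabase, recurrent regions were 6.20 times as dense in the window as elsewhere (3.80 to 9.60), and those in 6 or more libraries 9.70 times (3.79 to 20.8). Of the 481 regions in a single library 421 came from knockout BATF or knockout input. Without those 2 lists 21 of 81 regions in the window recurred, which is 25.9% (16.8 to 36.9), against 3.76% (3.31 to 4.26) elsewhere.

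The 21 recurrent regions lay on chromosomes 4, 6, 8, 9, 11, 12, 13, 16, 17 and 18. Chromosome 11 had 5 of them, chromosomes 16 and 17 had 3 each, and chromosomes 9, 13 and 18 had 2 each. Chromosomes 1, 2, 3, 5, 7, 10, 14, 15 and 19 had none. Of the 21, 12 started within 100 kb of position 3000000 and 20 within 400 kb. When regions no more than 10 kb apart were counted together, 15 groups were left. Among 2425 windows of 1 Mb along the autosomes, the first window of chromosome 11 had the highest number of recurrent regions, 5, and no other window had more than 4. A recurrent region was present in 10 of the 19 first windows and in 378 of the 2406 others, or 15.7%.

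**Figure D4:**
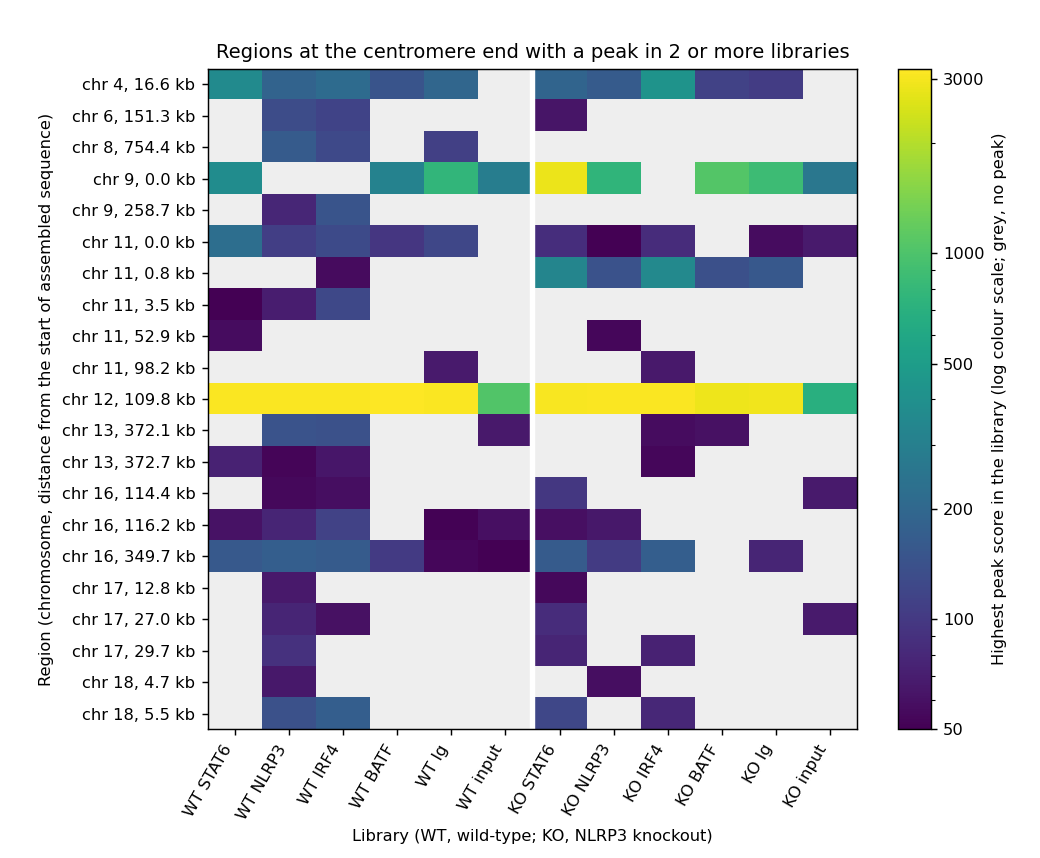
The 21 recurrent regions (rows, by chromosome and distance from position 3000000) in the 12 libraries (columns), coloured by the highest peak score in that library on a log scale. Grey marks no peak. The chromosome 12 region is filled in all 12 columns, and the wild-type NLRP3 and IRF4 columns hold the most filled cells, 17 and 15.

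The highest-scored peak of the window was the same in every library. It lay at chr12:3109828-3110154 and was the 1 region of the window found in all 12 lists. Outside the window 5 autosomal regions were in all 12 lists, a density ratio of 25.2 (0.533 to 225). Its score was 3100 in wild-type STAT6, NLRP3, IRF4 and Ig and 3183 in wild-type BATF. In knockout cells it was 3100 with NLRP3 and IRF4, 3063 with STAT6, 2892 with BATF and 2948 with Ig. Wild-type input gave 1027 and knockout input 685. The outlines were close to each other, with starts that differed by at most 36 bp and ends that differed by at most 112 bp between libraries. The peak was 179 bp wide in knockout input, 224 bp in wild-type input and from 285 to 321 bp in the other libraries.

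A region on chromosome 4, chr4:3016647-3018426, was found in every ChIP and Ig library and in neither input. Its highest score was 364 with STAT6, 188 with NLRP3, 212 with IRF4, 148 with BATF and 196 with Ig in wild-type cells. In knockout cells the scores were 191, 165, 423, 114 and 104 in that order. Both Ig libraries thus had the region together with all 8 specific antibody libraries. A region at the very edge of chromosome 11, chr11:3000004-3000681, was present in 10 libraries. It scored 224 with STAT6, 108 with NLRP3, 127 with IRF4, 95.8 with BATF and 121 with Ig in wild-type cells. In knockout cells it scored 86.8 with STAT6, 50.8 with NLRP3, 84.5 with IRF4, 57.2 with Ig and 67.9 in input. Wild-type input and knockout BATF had no peak there.

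The neighbouring region chr11:3000805-3003078 was found mainly in knockout cells. STAT6 scored 333, NLRP3 144, IRF4 356, BATF 138 and Ig 158 in knockout cells, and in wild-type cells IRF4 alone had peaks, 2 narrow ones scored 56.8 and 54.2. The 5 knockout peaks were between 1460 and 2024 bp wide. Knockout Ig was among them, so this contrast between genotypes was not limited to the specific antibodies. With 1 library per genotype a difference between cells and one between preparations cannot be told apart. The next region along, chr11:3003457-3004086, had the opposite pattern, with wild-type STAT6 at 50.5, NLRP3 at 69.4 and IRF4 at 123 and no knockout peak.

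Chromosome 16 carried 3 recurrent regions. The region chr16:3349743-3350424 was in 10 libraries, where wild-type STAT6 scored 161, NLRP3 172, IRF4 164 and BATF 102, and the knockout libraries of STAT6, NLRP3 and IRF4 scored 166, 104 and 174. Wild-type Ig had a peak there with a score of 53.7, wild-type input one with 50.2 and knockout Ig one with 76.5. The region chr16:3116165-3116708 was in 7 libraries at scores from 51.4 in wild-type Ig to 114 in wild-type IRF4. Close to it, chr16:3114399-3115200 scored 54.9 in wild-type NLRP3, 58.7 in wild-type IRF4, 98.8 in knockout STAT6 and 67.9 in knockout input. On chromosome 13 the adjoining regions chr13:3372051-3372676 and chr13:3372679-3372966 were found in 5 and 4 libraries. The first scored 146 in wild-type NLRP3, 140.2 in wild-type IRF4 and 66.9 in wild-type input, and 57.6 in knockout IRF4 and 60.1 in knockout BATF. The second was in no Ig or input list.

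The start of chromosome 9 differed from all other regions in width. Between chr9:2999986 and 3038417, 9 libraries had a total of 30 peaks. Wild-type STAT6 had a single peak of 38.4 kb with a score of 377, and knockout STAT6 a single peak of 38.3 kb with a score of 2851. In wild-type cells the BATF peak was 9.04 kb wide and scored 317, and the Ig peak was 13.6 kb wide and scored 772. In knockout cells the NLRP3 peak was 4.89 kb wide and scored 762, the Ig peak 5.46 kb and 862, and the BATF peak 1.85 kb and 1045. Input had separate narrow peaks instead, 16 of them in wild-type cells and 7 in knockout cells. All 7 knockout input peaks met a wild-type one. No peak was listed there for wild-type NLRP3 or for IRF4 of either genotype. All 7 wide peaks started before position 3000000 and within 8 bp of each other, so it was their far end that differed between libraries. Only 6 of the 617 peaks were wider than 3000 bp and all 6 lay here, whereas 1 of the other 92190 autosomal peaks was, at 5841 bp.

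**Figure D5:**
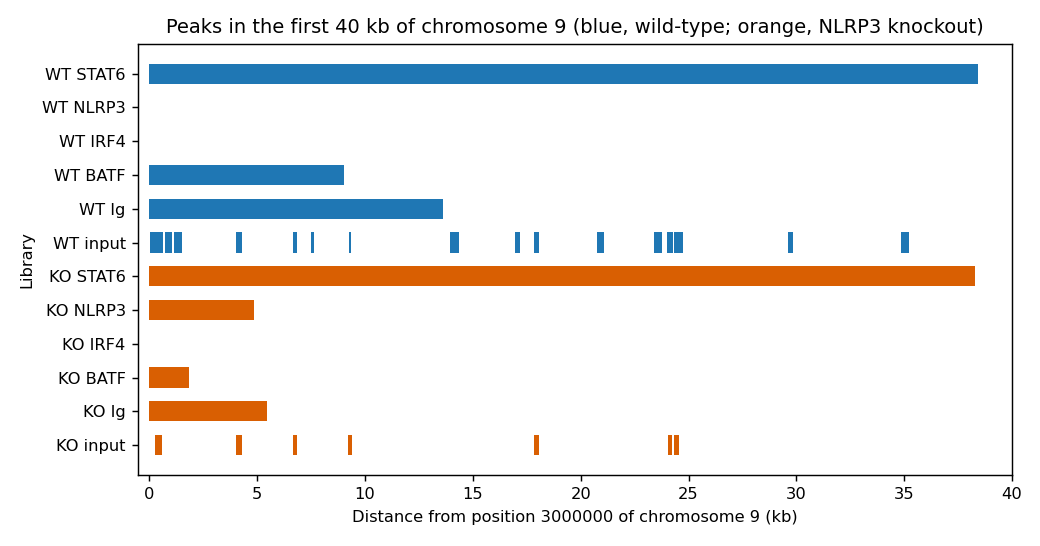
Extent of each peak in the first 40 kb of chromosome 9, by distance from position 3000000 in kb and by library. STAT6 of both genotypes has 1 peak across 38 kb, input has 16 and 7 narrow peaks, and wild-type NLRP3 and both IRF4 libraries have none.

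Peaks of the window also tended to be wider and higher than the rest in the same library. The median width exceeded that of other autosomal peaks in 10 of 12 lists and was equal in knockout BATF, at 58 bp, and in knockout input, at 56 bp. In wild-type IRF4 the median was 348 bp (quartiles 209 and 496) against 151 bp (116 and 178), and in wild-type NLRP3 it was 323 bp (149 and 399) against 153 bp (118 and 181). Knockout STAT6 had 327 bp against 145 bp, and wild-type input 247 bp against 100 bp. The smallest increase among these 10 lists was in wild-type Ig, at 156 bp against 109 bp. The median score followed in the same 10 lists. It was 119 against 62.0 in wild-type IRF4, 95.4 against 68.1 in wild-type BATF, 76.6 against 62.3 in wild-type NLRP3 and 80.7 against 77.2 in knockout STAT6. The covered length was 45.6 kb in wild-type STAT6 and 45.7 kb in knockout STAT6, and 7.19 and 7.43 kb without the chromosome 9 block. For wild-type NLRP3, wild-type IRF4 and knockout IRF4, which had no peak in the block, it was 7.48, 7.26 and 6.93 kb.

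Overlap with background libraries was more frequent in the window than elsewhere for all 8 ChIP lists. The share of peaks that met Ig or input of their own genotype was 54.5% in wild-type BATF (6 of 11 peaks, 23.4 to 83.3) against 12.1% of all its autosomal peaks. It was 40% in wild-type IRF4 (8 of 20, 19.1 to 63.9) against 15.5%, and 22.2% in wild-type STAT6 (6 of 27, 8.62 to 42.3) against 3.39%. Knockout NLRP3 had 46.7% (7 of 15, 21.3 to 73.4) against 13.1%, and knockout BATF 1.62% (5 of 309, 0.527 to 3.74) against 0.222%. In those 5 lists the interval lay above that of the peaks outside the window. The intervals overlapped in the other 3 lists, namely wild-type NLRP3 with 7 of 22 peaks, or 31.8%, against 21.5%, knockout STAT6 with 8 of 18, or 44.4%, against 35%, and knockout IRF4 with 5 of 16, or 31.3%, against 10.8%. When only peaks scored at least 100 were kept, the share was higher in the window in 4 of the 8 ChIP lists. That cut also removed Ig and input peaks below 100, so fewer overlaps were possible.

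Of the 21 recurrent regions 12 included an Ig or input peak, which is 57.1% (34.0 to 78.2), and outside the window 51.1% (46.2 to 55.9) of 427 did. The outside share rests largely on the long knockout input list. Outside, 87 of 113 recurrent regions with an input peak had it in knockout cells only, against 3 of 8 inside. Without knockout BATF and knockout input 238 regions recurred outside, and the share was not recomputed for them. The 4 highest-scored ChIP regions that met neither Ig nor input peaks in any library were all recurrent. The region chr18:3005550-3005993 had a score of 140.0 in wild-type NLRP3, 172 in wild-type IRF4, 120 in knockout STAT6 and 79.1 in knockout IRF4. At chr9:3258737-3258921 wild-type NLRP3 scored 77.8 and wild-type IRF4 147, and no other library had a peak. At chr6:3151301-3151541 the scores were 131 for wild-type NLRP3, 116 for wild-type IRF4 and 63.7 for knockout STAT6. The region chr11:3003457-3004086, given above, was the fourth by score. The fifth, chr17:3986088-3986159, was not recurrent and scored 95.7 in wild-type STAT6 alone. Of the 358 window regions with a ChIP peak but none from Ig or input, 349 were in 1 library, and 303 of those were in knockout BATF alone. Without these, 9 of 55 such regions were recurrent, which is 16.4% (7.77 to 28.8), against 4.05% (3.53 to 4.62) of 5163 outside the window. At least 100 was scored by 4 of the 55, or 7.27% (2.02 to 17.6), against 3.87% (3.36 to 4.44) outside.

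Wild-type NLRP3 and wild-type IRF4 had the largest numbers of recurrent regions, 17 and 15 of 21, and 14 in common. In the window 14 of 22 NLRP3 peaks, or 63.6% (40.7 to 82.8), met an IRF4 peak, and 15 of 20 IRF4 peaks, or 75% (50.9 to 91.3), met an NLRP3 peak. Elsewhere on the autosomes the shares were 28.8% (24.6 to 33.2) and 18.9% (16.0 to 22.1). Knockout STAT6 was the next, with 13 of 21. Its peaks met wild-type NLRP3 in 12 of 18 cases, or 66.7% (41.0 to 86.7), and wild-type STAT6 in 7 of 18, or 38.9% (17.3 to 64.3). These intervals overlapped, and outside the window the shares were 48.2% (41.5 to 55.0) and 42.8% (36.2 to 49.6). On chromosome 17 the regions chr17:3012843-3013039, chr17:3026956-3027305 and chr17:3029672-3030018 each had both. The scores there were 66.7, 76.4 and 90.9 with wild-type NLRP3 and 54.4, 85.0 and 76.4 with knockout STAT6, and wild-type STAT6 had no peak in any of them. The middle one also had peaks in wild-type IRF4, scored 60.2, and in knockout input, scored 67.9, and the last had one in knockout IRF4, scored 75. The first and last of these regions were picked out after their values were seen. Over all 21 regions, 6 had wild-type NLRP3 and knockout STAT6 without wild-type STAT6. This combination was not counted outside the window, so the 6 cannot be set against a background share.

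The share of wild-type peaks found again in knockout cells was higher in the window than outside it for all 6 preparations. Of the window peaks in wild-type cells, the knockout list of the same preparation held 10 of 20 for IRF4, 6 of 22 for NLRP3, 6 of 27 for STAT6, 4 of 11 for BATF, 5 of 16 for Ig and 8 of 23 for input. As shares these were 50% (27.2 to 72.8), 27.3% (10.7 to 50.2), 22.2% (8.62 to 42.3), 36.4% (10.9 to 69.2), 31.3% (11.0 to 58.7) and 34.8% (16.4 to 57.3). Outside the window the shares were 15.9%, 15.2%, 3.46%, 15.8%, 13.1% and 3.03% in the same order. The interval in the window lay above that outside it for IRF4, STAT6 and input, and overlapped it for NLRP3, BATF and Ig. In the opposite direction the share of knockout peaks found in wild-type cells was higher in the window for 5 preparations, and for STAT6 it was 38.9% against 42.8% outside. Of the 8 shared input peaks 7 lay in the chromosome 9 block. Of the 21 recurrent regions 18 had a peak in both genotypes, 3 in wild-type cells only and 0 in knockout cells only. NLRP3 peaks were listed in both genotypes at 6 of them, in wild-type only at 11 and in knockout only at 3. Outside the window 70.0% of the 427 recurrent regions were in both genotypes (65.4 to 74.3), against 85.7% inside (63.7 to 97.0), and these intervals overlapped. Regions in wild-type cells only were 10.3% outside (7.59 to 13.6) and 14.3% inside (3.05 to 36.3). Those in knockout cells only were 19.7% outside (16.0 to 23.8) and 0% inside (0 to 16.1). In both classes the intervals overlapped. Without knockout BATF and knockout input 238 regions recurred outside the window in place of 427, and 21 still recurred inside. These 2 long knockout lists thus changed the number outside and not that inside, and the genotype shares were not recomputed without them. Of regions with an NLRP3 peak 55% were in wild-type cells only inside the window (31.5 to 76.9) and 50.3% outside (42.7 to 57.9), so the NLRP3 split was close to that elsewhere. The library labelled NLRP3 from knockout cells thus had a peak at 9 recurrent regions, and the loss of the protein could not be checked from peak lists.

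In knockout BATF and knockout input the window differed in how the lists began. In knockout BATF 88.0% of autosomal peaks carried the same score, 56.67, and 10.1% a higher one, yet on all 19 autosomes the first peak had a higher score. In knockout input the commonest score was 57.35, 12.5% of peaks were higher, and the first peak was higher on 17 of 19 autosomes. The first peak of knockout BATF on chromosome 15 started only at 5773098, and the first of knockout input on chromosome 7 at 6319221. Knockout BATF had no peak in the window on 2 autosomes and knockout input none on 6. The last megabase before the final peak of each autosome held 24.7 and 12.2 peaks per Mb, against 23.5 and 11.9 over the rest. The cause was not tested.

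Few peaks of the shorter lists lay close to the boundary at 4000000. The last recurrent region inside it was chr8:3754381-3754547, with 166 for NLRP3, 125 for IRF4 and 110.2 for Ig, all in wild-type cells. The first outside was chr18:4038745-4038901, with BATF peaks in both genotypes and a highest score of 102. In the 10 shorter lists the regions nearest to the boundary on either side were both of wild-type STAT6 on chromosome 17, at 3986088 with a score of 95.7 and at 4023474 with a score of 88.3.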

How the data were processed

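Each of the 12 deposited peak lists gives, per the file headers and columns, a chromosome, a start, an end, a peak name and a score. The score is the value the authors' peak caller (MACS, run in Galaxy) gave each peak. Reads were aligned with Bowtie2 and the build is named mm8, per the submitters' processing notes. For the caller, the version, threshold and control were not given in the sources used here. Read depth is unknown. The lowest score in any list is 50.04, and 3100 recurs as the highest value of several lists. All deposited peaks were used without a filter.

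Peaks were split at a start of 4000000. Densities used 19 Mb for the window, and for the rest the span from there to the last peak of any list. Overlap meant at least 1 bp, and overlapping peaks were merged into regions. Intervals are exact Clopper-Pearson 95% intervals of peak counts. They cover counting error only, and neighbouring peaks are not independent. Analyses ran in Python 3.11.15 with pandas 2.3.3 and scipy 1.17.1. The overlap code was tested on simulated data, where it found 200 of 200 planted overlaps, and against bedtools 2.31.1, with which 0 of 132 list pairs differed. Named regions were the 12 in most lists, the 5 highest-scored without an Ig or input peak, the highest peak of each list and those next to the boundary. The members, lists and rules were chosen with earlier results of these data known. A total of 16 alternatives were tried, among them other boundaries, a minimum score of 100 and other overlap rules.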

Additional observations from a re-analysis of the deposited data

How the results depend on the processing

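Of 240 values recomputed under 16 alternatives 188 were labelled the same, 43 moved and 9 reversed. A ratio or share labelled the same lay within the interval of the reported value, and many of these intervals are wide. The label therefore allows sizeable changes. It covers the wild-type BATF density ratio, 2.20 as reported and 3.60 with a boundary at 3500000. It also covers the knockout IRF4 share in Ig or input, 31.3% as reported and 12.5% with input alone. The summed density ratio of 0.844 became 10.3 with a minimum score of 100, 3.11 without knockout BATF and input, and 2.94 with the 200 highest-scored peaks of each list, all of which remove or shrink the 2 long lists. The value of 2.94 includes 3385 peaks of knockout input, kept because of ties. The summed ratio was 0.950 with a boundary at 3500000 and 0.762 against the last 1 Mb of each autosome. Against the last 1 Mb the ratios of the 10 shorter lists lay between 0.730 and 5.75, with 2 intervals above 1. For single libraries the ratio turned for knockout BATF (19.4 with the minimum score, 2.22 with the 200 highest), for knockout input (63.0 and 1.20), and for wild-type STAT6 (0.963 without chromosome 11, 0.730 against the last 1 Mb). The share of regions in 2 or more lists, 4.18%, was 8.55% with a boundary at 3500000, 2.09% at 5000000, 76.9% with the minimum score and 25.9% without the 2 long lists. For 6 or more lists, 1.39% became 2.99% at 3500000, 30.8% with the minimum score and 7.41% without the 2 long lists. With the minimum score, 4 in place of 8 ChIP lists had the higher overlap with Ig or input, among far fewer peaks. The minimum was applied to the Ig and input peaks too. Where no construction is named, the cause was not tested. The 200 highest-scored peaks, the steps of 100 kb, the recurrence without the long lists and the omission of the chromosome 9 block were chosen after seeing the data. Densities after the first low-scored peak of the 2 long lists depend on where that peak lies and are not reported.

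No replicate was left out, since each group has 1. No paired analysis was possible because each group is 1 library and the labels give no replicate numbers. Depth is unknown, and its part in the length of the lists was not tested.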

Other observations

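Below position 4000000 chromosome X held 79 peaks, 18 of them in the 10 shorter lists. They formed 78 regions, of which 1 was in 2 libraries, chrX:3206812-3207136 in STAT6 and Ig of knockout cells. On the rest of chromosome X 29 of 4951 regions were in 2 or more libraries. The highest score below 4000000 was 87.3, and 0 peaks there scored at least 100. The 18 peaks, the 1 recurrent region and the highest score lie within the range over the 19 autosomes, whereas the 79 peaks exceed the 74 of chromosome 11, the highest among them. On chromosome Y all 36 deposited peaks lay below 4000000. A region there, chrY:2652194-2652337, was in 10 libraries with a highest score of 376, and was listed in neither BATF nor input of wild-type cells.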
